A study of Arabidopsis thaliana with 12 samples.

Results

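In mature seeds of the Arabidopsis thaliana wild type Col-0, 90 genes were restricted to the embryo by a rule on read counts, out of 32833 gene entries. A gene qualified with a mean of at least 10 CPM (read counts scaled to a library's total gene reads) in Col-0 embryo that was also at least 8 times its mean CPM in Col-0 seed coat. At least 10 CPM in Col-0 embryo was reached by 9579 genes, so the ratio set most of them aside. The Col-0 tissue ratios chose the genes and are given as a description without a test. Just inside the ratio threshold stood GATA17 at 8.01, AT4G16141 at 8.06 and AT5G17700 at 8.07 times. Just outside it stood AT1G73390 at 7.89 and NIT4 and MYB96 at 7.74 times. At the threshold on level, IAA30, JKD and MSL9 were just inside with 10.08, 10.11 and 10.23 CPM in Col-0 embryo, and AT2G41050, AT1G03457 and AT5G47160 were just outside with 9.589, 9.391 and 9.379 CPM.

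The study set Col-0 against a double mutant, Atsdr4l-5 dig2, in dissected embryos and in seed coats that still carried the endosperm. Each of the 4 groups, embryo and seed coat of either genotype, had 3 replicate libraries of stranded poly(A) RNA. Seeds of both genotypes ripened for about 18 days after pollination under 16 h of light and 8 h of dark, spent 2 days at room temperature and took up water for 1 to 2 h before dissection. The labels do not say whether replicates came from separate plants, so p-values measure the spread between these samples, which may be technical. What kind of lesion either mutated gene carries is not stated in the sources used here. The files and the reference table tie neither AtSDR4L nor DIG2 to a locus, so the mutant label was not checked on its targets.

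Embryo libraries held 14003564 to 15047509 gene reads for Col-0 and 13927944 to 17619031 for the mutant. Seed coat libraries held 10301817 to 14947969 for Col-0 and 13685009 to 15923520 for the mutant. Dissection was checked on 12 endosperm markers, of which EPR1, an extensin-like gene, had by far the most reads. EPR1 had a mean of 154346 scaled CPM in Col-0 seed coat beside 183 in Col-0 embryo, and of 193000 beside 179 in the mutant. NCED6 and MAN7 were higher in seed coat in Col-0 (2.12 and 5.06, beside 0.708 and 2.72 in embryo). In the mutant both were higher in embryo (20.8 and 10.4, beside 12.7 and 8.52 in seed coat). AGL62 was nearly equal in Col-0, at 1.69 in embryo and 1.65 in seed coat. The rest had at most 0.447 in any group, too little to judge dissection. Of 13 seed coat markers, BAN, TT10, TT2, TT8, GPAT5 and STK had 0 reads in every Col-0 embryo library, and TT10, TT12, TT2, TT8 and STK had 0 in every mutant embryo library. In Col-0 seed coat BAN was at 9.11 and TT10 at 0.937 scaled CPM. TT2, STK, GPAT5 and TT8 were only at 0.0503, 0.0725, 0.165 and 0.418 there, so their 0 reads in embryo say little. MUM2 and CESA5 were higher in Col-0 embryo (0.68 and 4.59) than in Col-0 seed coat (0.0252 and 3.28). The summed seed coat markers came to 243 to 321 scaled CPM in Col-0 embryo and 245 to 293 in Col-0 seed coat, with 281 and 249 of it from ARA12, which is not specific to the coat here. In the mutant the same sum was 132 to 156 in embryo and 202 to 317 in seed coat. The 7 embryo markers chosen for the check were not embryo-restricted as a group, at 105 to 117 in Col-0 embryo and 175 to 194 in Col-0 seed coat. ATML1, an epidermal factor, and WOX2 were higher in the seed coat fraction, whereas the root stem cell factor PLT2 had a mean of 0 scaled CPM in Col-0 seed coat.

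The embryo of a mature seed is a dormant plantlet with cotyledons, a shoot apex and a root pole. Its cells hold reserves and protective proteins laid down during maturation, and they also carry transcripts of the regulators that pattern leaves, vasculature and root. The surrounding seed coat is largely dead maternal tissue, and the endosperm beneath it is a living layer that restrains germination. Proteins related to rice SDR4 are known to act in seed dormancy.

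Of the 90 genes, 61 had a symbol in the RefSeq annotation, and 36 encode transcription regulators. They lay on chromosomes 1 to 5 in numbers of 20, 15, 18, 17 and 20. Together they took 1.194 ± 0.0733% of the gene reads of Col-0 embryo against 0.7019 ± 0.0128% of those of mutant embryo (SD, n = 3 in each group here and below). Their seed coat share was 0.05542 ± 0.015% for Col-0 and 0.06452 ± 0.00748% for the mutant. The genes with most reads were CRU2, EM1, AT1G62510 and AT5G15780. Without these 4 genes the embryo shares were 0.306 ± 0.0181% for Col-0 and 0.2848 ± 0.0147% for the mutant, and the seed coat shares 0.01596 ± 0.00102% and 0.04339 ± 0.00333%. Without the 4, libraries of the 2 genotypes overlapped in the embryo, at 0.2887% to 0.3248% in Col-0 and 0.269% to 0.2981% in the mutant. They did not in the seed coat, at 0.01515% to 0.0171% and 0.03986% to 0.04647%, although 3 libraries against 3 allow no exact permutation test to pass 0.05. The seed coat sums weigh genes by reads. CYP78A6 went from a mean of 2.14 to 107 CPM there, whereas 50 of the 90 genes had a fitted change below 0. All these shares are of total gene reads. The fits below use TMM scaling, with factors of 1.268 to 1.386 for Col-0 embryo and 1.002 to 1.081 for mutant embryo. It would lower Col-0 embryo shares more than mutant ones. Shares on that scale were not computed.

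Most of the genes kept their embryo bias in the mutant, whose libraries had no part in choosing them. With edgeR's quasi-likelihood test and Benjamini-Hochberg adjustment over all 16238 tested genes, 83 of the 90 (92.2%) were higher in mutant embryo than in mutant seed coat at an adjusted p under 0.05. The background for that call was 18% of tested genes, and for the opposite call, which 0 of the 90 received, it was 16.9%. Scaling by total gene reads alone gave 86 of the 90 (95.6%), beside 50.3% of tested genes, with a median log2 ratio of 0.426 over all tested genes. With the replicate number, which was taken to pair the tissues of a genotype, as a block, 87 of the 90 were called. The share of all tested genes called under that block was not counted. The median log2 ratio of mutant embryo over mutant seed coat was 3.52 over the 90 genes and 0.01 over all tested genes. In Col-0 the median was 3.90, set by the rule. All 90 genes had enough reads to be tested, but their high level in Col-0 embryo ensured that.

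By the rule's own measure, 61 of the 90 genes were at least 8 times higher in mutant embryo than in mutant seed coat, beside 2.31% of tested genes. For 43 of the 61 the ratio was at least 16. Another 15 genes fell between 4 and 8 times, 10 between 2 and 4, and 3 under 2, and MSL9 had no reads in the mutant. Of the 61, 35 also reached 10 CPM in mutant embryo and 26 were under that level. The full rule applied to the mutant took 63 genes, 35 of them among the 90. Counted within same-numbered embryo and seed coat libraries, 85, 84 and 85 of the 90 were at least 8 times higher in embryo in the Col-0 pairs and 65, 62 and 57 in the mutant pairs.

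**Figure D1:**
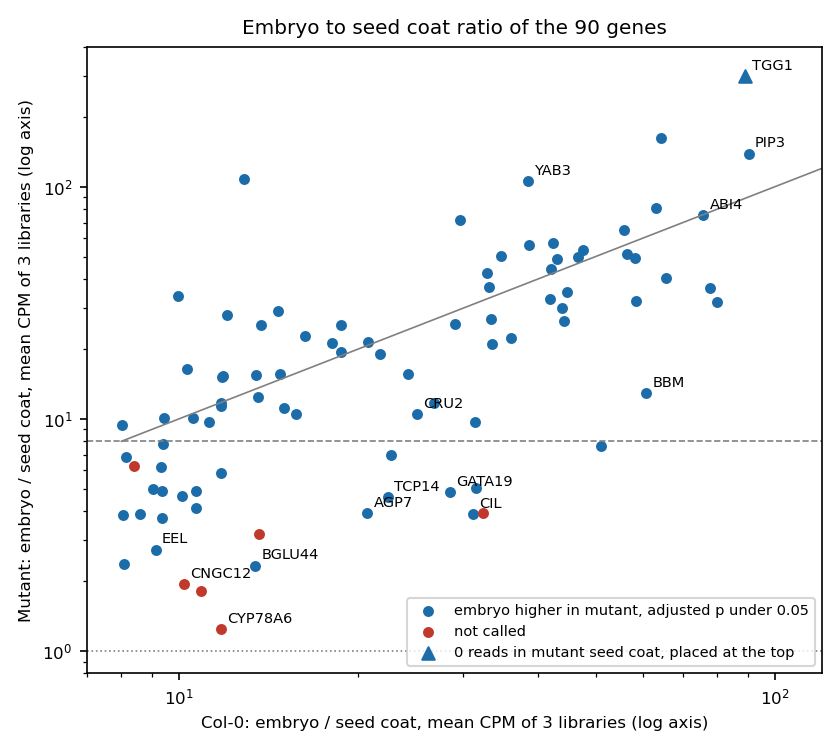
Embryo to seed coat ratio of mean CPM (3 libraries each) in the mutant against that in Col-0, both axes logarithmic; the solid line marks equal ratios, the dashed line a ratio of 8 and the dotted line a ratio of 1. Of the 90 genes, 61 lie at or above the dashed line; TGG1, with 0 reads in mutant seed coat, is placed at the top, and MSL9, with no reads in the mutant, is not drawn.

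Because the Col-0 libraries both chose the genes and serve as the reference, the choice was repeated without 1 Col-0 pair at a time. The 82, 94 and 96 genes chosen without pair 1, 2 or 3 were read in the pair left out, where 92.7%, 87.2% and 85.4% of them were at least 8 times higher in embryo. In the 3 mutant pairs the same genes gave 73.2%, 72% and 65.9% for the first choice. For the second choice the mutant pairs gave 71.3%, 66% and 62.8%, and for the third 71.9%, 65.6% and 61.5%. Each mutant pair was below the left-out Col-0 pair in each choice.

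**Figure D2:**
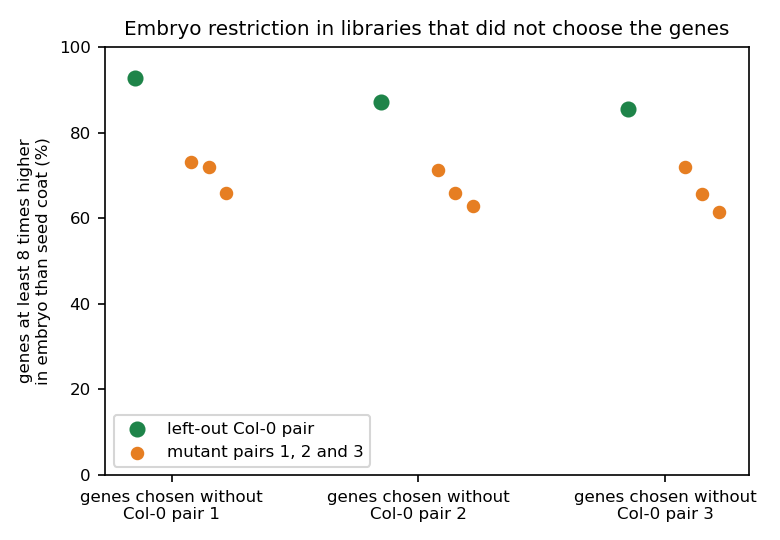
Share of genes at least 8 times higher in embryo than in seed coat, for genes chosen from 2 Col-0 pairs and read in the left-out Col-0 pair (large points) and in the 3 mutant pairs (small points). The left-out Col-0 pairs stand at 85.4% to 92.7% and the mutant pairs at 61.5% to 73.2%.

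Values from here on are CPM on TMM-scaled library sizes, called scaled CPM, the scale of the fitted changes. The TMM factors were 1.268 to 1.386 in Col-0 embryo and 0.9194 to 1.004 in Col-0 seed coat, so ratios on scaled CPM are smaller than those of the rule, and 54 of the 90 genes met the rule on that scale. Levels are not corrected for gene length and are compared between libraries, not between genes.

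Relative to Col-0, the genes moved in both directions. In mutant embryo 24 of the 90 rose (26.7%, beside 25.4% of all tested genes) and 36 fell (40%, beside 21.4%), with a median log2 change of -0.18 over the 90 and 0.00 over all tested genes. Among the 9489 other genes with at least 10 CPM in Col-0 embryo, 26.8% rose and 23.4% fell. In mutant seed coat 28 rose (31.1%, beside 24.8%) and 24 fell (26.7%, beside 23.5%), with a median of -0.17. Changes of at least 2-fold among the called genes numbered 12 up and 30 down in the embryo, and 23 up and 21 down in the seed coat. The share of all tested genes with such changes was not counted, so these counts only describe the 90. The libraries of the 2 genotypes did not overlap for 64 genes in the embryo, beside 57.3% of tested genes, and for 54 in the seed coat, beside 55.5%. The Col-0 libraries of these contrasts also chose the genes, so the counts were repeated with the mutant tested only against the Col-0 pair that had not chosen them. There, 40.2%, 36.2% and 32.3% of the chosen genes fell in the embryo, beside 11.1%, 12.9% and 10.5% of all tested genes, and 23.2%, 17% and 20.8% rose, beside 17.5%, 14.8% and 15.3%. In the seed coat 29.3%, 20.2% and 25% rose, beside 16.1%, 16.3% and 14.8%, and 15.9%, 28.7% and 15.6% fell, beside 13.3%, 15.3% and 11.8%. The counts also depended on scaling. With total gene reads alone 16 of the 90 rose (17.8%, beside 14.1% of tested genes) and 46 fell (51.1%, beside 42.4%) in embryo, and 22 rose (24.4%, beside 14.9%) and 31 fell (34.4%, beside 38.1%) in seed coat. That scaling moved the median change of all tested genes to -0.346 in embryo and -0.296 in seed coat. All 10 genes it newly called in embryo were lower in the mutant: ABI4, KAN2, JKD, PIP3, BLH2, CYP94C1, AT1G62510, MYB30, ABCC15 and AT4G29100, with log2 changes of -1.19 to -0.5. In bulk tissue, fewer cells of a type and less RNA per cell cannot be told apart. Low seed coat levels of these genes also cannot be told apart from embryo tissue carried over in dissection, which was not tested. Relative to embryo, the lowest seed coat level among the 90 in Col-0 was that of PIP3, at 1.11%, from only 1, 12 and 2 seed coat reads.

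Of the 90 genes, 20 rose in both tissues (22.2%, beside 18.4% of all tested genes), 20 fell in both (22.2%, beside 14.5%) and 21 were called in neither (23.3%, beside 38.2%). Another 17 were called in the embryo and not in the seed coat, and 9 in the seed coat and not in the embryo. BGLU44 and RBCS1A fell in the embryo and rose in the seed coat, and UGT85A1 did the opposite. Across the 90 genes the embryo and seed coat changes had a Spearman rho of 0.846 and a Pearson r of 0.82, beside 0.759 and 0.775 over all tested genes. The 2 contrasts share no library but are not independent. Same-numbered embryo and seed coat libraries of a genotype had correlated deviations from their group means, at 0.16 to 0.51. Genes are not independent replicates either.

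**Figure D3:**
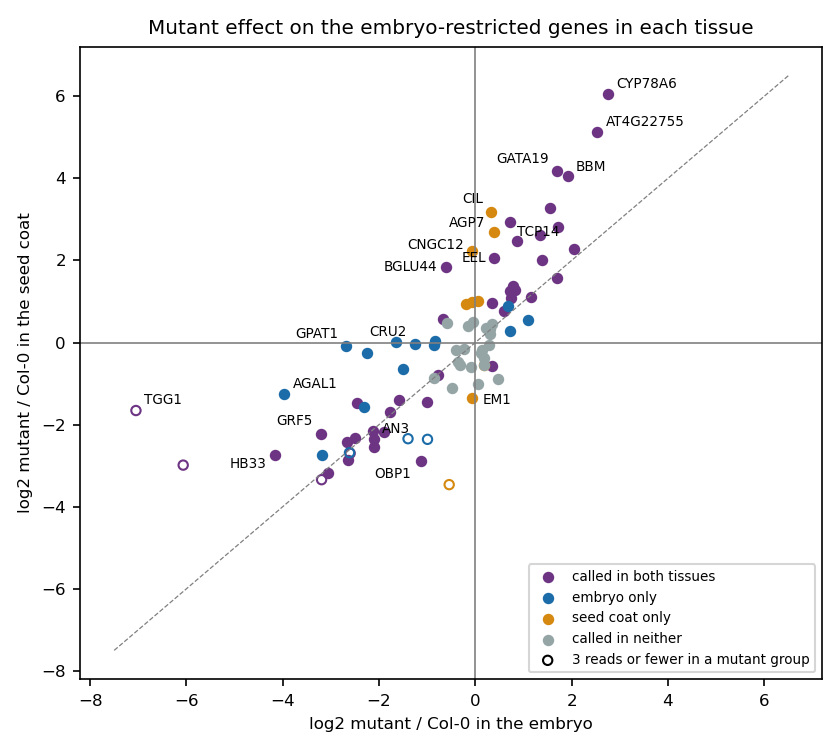
Fitted log2 change of mutant against Col-0 in the seed coat (vertical) against that in the embryo (horizontal) for the 90 genes except MSL9, whose seed coat reads allow no fold; colours mark calls at an adjusted p under 0.05, open circles genes with 3 reads or fewer in a mutant group, and the dashed line equal changes. CYP78A6 and AT4G22755 lie at the upper right with seed coat changes of 6.05 and 5.13, and TGG1 lies at the far left with an embryo change of -7.05 and its seed coat change drawn at the bound of 3.15-fold lower.

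The extremes of the embryo contrast are shown with the 250 bases upstream of their annotated start, read 5′ to 3′ on the gene's strand from TAIR10.1 with RefSeq gene models. They are MSL9, which had no reads in the mutant, TGG1, which had the largest decrease among genes with reads in mutant embryo, and, by the naming rule, the 2 largest increases with a symbol. MSL9 (AT5G19520) lies at chr5:6585355-6588966 on the plus strand, with the printed stretch at chr5:6585105-6585354. TGG1 (AT5G26000) lies at chr5:9079452-9082384 on the minus strand, with the stretch at chr5:9082385-9082634. CYP78A6 (AT2G46660) lies at chr2:19153328-19155579 on the minus strand, with the stretch at chr2:19155580-19155829. BBM (AT5G17430) lies at chr5:5742393-5745748 on the minus strand, with the stretch at chr5:5745749-5745998. Capitals mark matches to ACGTG on either strand, the core of abscisic acid response elements, to CATGCA, the core of the RY element bound by B3 factors of seed maturation, or to GGNCCC, a core bound by TCP factors. The capitals in MSL9 are 2 overlapping ACGTG matches, 1 per strand, and the other stretches held none of the 3 motifs.
MSL9: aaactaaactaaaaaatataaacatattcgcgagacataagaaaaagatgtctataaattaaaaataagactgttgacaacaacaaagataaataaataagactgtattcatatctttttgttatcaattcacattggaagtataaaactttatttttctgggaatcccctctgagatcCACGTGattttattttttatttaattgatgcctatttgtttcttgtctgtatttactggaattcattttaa
TGG1: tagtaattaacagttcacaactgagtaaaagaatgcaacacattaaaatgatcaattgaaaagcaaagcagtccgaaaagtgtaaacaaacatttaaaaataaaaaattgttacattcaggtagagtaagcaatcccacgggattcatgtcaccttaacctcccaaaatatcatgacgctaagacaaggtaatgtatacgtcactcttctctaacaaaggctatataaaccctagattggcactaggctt
CYP78A6: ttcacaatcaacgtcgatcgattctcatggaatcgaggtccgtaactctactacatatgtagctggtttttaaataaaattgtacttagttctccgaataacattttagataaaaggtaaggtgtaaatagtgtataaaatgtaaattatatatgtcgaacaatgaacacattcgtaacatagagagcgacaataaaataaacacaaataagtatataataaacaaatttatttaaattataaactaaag
BBM: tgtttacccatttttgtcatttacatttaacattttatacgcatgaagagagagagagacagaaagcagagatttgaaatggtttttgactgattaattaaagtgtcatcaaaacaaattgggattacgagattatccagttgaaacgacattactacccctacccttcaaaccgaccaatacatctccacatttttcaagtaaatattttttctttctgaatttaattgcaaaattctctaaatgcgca
Among the upstream stretches of all 27443 protein-coding genes, 22.9% held ACGTG, 8.43% CATGCA and 7.35% GGNCCC. Among the 90 genes the shares were 24.4%, 13.3% and 4.44%. Among the 24 that rose in mutant embryo they were 20.8%, 8.33% and 8.33%, and among the 36 that fell 22.2%, 11.1% and 0%. These are matches of letters in a fixed window and say nothing of binding.

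MSL9, a mechanosensitive ion channel of the plasma membrane, had 10.4, 7.59 and 5.07 scaled CPM in the 3 Col-0 embryo libraries (448 reads in all) and 0 reads in the 3 mutant embryo libraries. Against a floor of 3 reads per library, that is at least 42.4-fold lower (adjusted p = 4.08e-05). Its seed coat reads, 8 for Col-0 and 0 for the mutant, were too few for a fold. TGG1, the myrosinase that splits glucosinolates in guard and idioblast cells, stood at 47.4, 61.7 and 53.4 scaled CPM in Col-0 embryo and at 0.616, 0.465 and 0.118 in mutant embryo. Its log2 change was -7.05 ± 0.33 (SE; adjusted p = 9.44e-08), and its embryo libraries did not overlap. Its 32 seed coat reads in Col-0 were met by 0 for the mutant, at least 3.15-fold lower (adjusted p = 0.00108). Of 12 tested genes for glucosinolate synthesis and breakdown, TGG1 among them, 3 rose and 3 fell in mutant embryo.

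The genes are described by role, in groups drawn up by hand after their values were seen, so the counts per group are descriptions to be set beside the 25.4% and 21.4% of all tested genes that rose and fell in embryo. For the seed coat the shares of all tested genes are 24.8% and 23.5%, and several group counts are near them. For a call of embryo over seed coat in the mutant the share is 18% of all tested genes and 92.2% of the 90. Regulators of organ growth and patterning numbered 18, of which 4 rose, 7 fell and 7 were not called in mutant embryo. In the seed coat 5 rose, 4 fell and 9 were not called, and 17 of the 18 were higher in embryo than seed coat in the mutant. AN3, a coactivator that drives cell division in young leaves, was at 147, 156 and 101 scaled CPM in Col-0 embryo and 39.2, 28.4 and 26.2 in mutant embryo. GRF5, a growth-regulating factor that binds AN3, was at 57.1, 44.9 and 38.9 and 4.59, 6.44 and 4.37. Both genes had every mutant embryo library below every Col-0 one, with log2 changes of -2.11 ± 0.25 (adjusted p = 2.31e-05) and -3.2 ± 0.30 (adjusted p = 3.62e-06). AN3 also fell in the seed coat (-2.35, adjusted p = 0.000602), where its Col-0 mean was 4 scaled CPM beside 135 in Col-0 embryo. GRF5 had a seed coat change of -2.22 (adjusted p = 0.0336) that was lost without Col-0 seed coat replicate 1 or 2 or mutant seed coat replicate 2 or 3, at adjusted p of 0.0573 to 0.115. HB33, a zinc finger homeodomain factor, went from 56.9, 46.3 and 41.5 scaled CPM in Col-0 embryo to 2.86, 2.59 and 2.6 in mutant embryo. With a log2 change of -4.16 ± 0.24 (adjusted p = 7.56e-08), HB33 fell furthest in this group, and it also fell in the seed coat (-2.75, adjusted p = 0.00374).

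Among factors that set the faces of lateral organs, KAN, which specifies the lower leaf face, went from 14, 11.1 and 11.3 to 7.51, 4.85 and 8.09 scaled CPM in the embryo, a log2 change of -0.83 (adjusted p = 0.0236). That call was lost with unstranded counts, without Col-0 embryo replicate 1 and without mutant embryo replicate 2, at adjusted p of 0.054 to 0.0821. Reads on the opposite strand of KAN numbered 347 beside 1069 on its own. Its relative KAN2 (-0.31, adjusted p = 0.0875) and the YABBY factor YAB3 (0.47, adjusted p = 0.0937) were not called in the embryo, although KAN2 was with total gene reads (-0.66, adjusted p = 0.00368). YAB3 was among the genes most confined to the embryo in the mutant, at 24.5, 22.3 and 26.4 scaled CPM in embryo and 0.0964, 0.0892 and 0.755 in seed coat. KNAT1, a KNOX homeodomain factor of shoot meristem and stem, fell from 11.3, 8.45 and 6.31 to 3.3, 2.72 and 3.84 scaled CPM in the embryo (log2 -1.4, adjusted p = 0.000498). Seed coat reads of KNAT1 were 7 for Col-0 and 1 for the mutant, a ratio of 6.21 with a 95% counting interval of 0.797 to 280. Of 24 tested genes of a shoot polarity and vascular list that holds KAN, KAN2, YAB3, KNAT1 and LHW, 4 rose and 12 fell in mutant embryo, and 1 rose and 6 fell in mutant seed coat.

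The leaf-shape factors of the TCP, BELL and NGATHA families also split. TCP2 (0.35) and TCP24 (0.14), which limit leaf growth, were not called in the embryo, at adjusted p of 0.297 and 0.615, and their relative TCP10 fell (-0.85, adjusted p = 0.00771). BLH2 was not called (-0.15, adjusted p = 0.522; with total gene reads -0.5, adjusted p = 0.0491). Its close relative BLH4 rose (0.68, adjusted p = 0.00618), a call lost when libraries were scaled by total gene reads (0.33, adjusted p = 0.135). NGA1, a B3 factor of leaf margins, was not called in the embryo (0.06) and rose in the seed coat (1.02, adjusted p = 0.00819), a call that total gene reads also ended (0.71, adjusted p = 0.0591). OBP1, a DOF factor that promotes the cell cycle, fell in the embryo from 21, 24.3 and 23 to 10.9, 12.2 and 8.38 scaled CPM. In the seed coat it fell from 2.93, 3.02 and 3.56 to 0.482, 0.268 and 0.503, with no overlap of libraries in either tissue. The D-type cyclin CYCD3;3 was not called in the embryo (-0.06) and had a log2 change of 0.98 in the seed coat (adjusted p = 0.017), lost with total gene reads (0.68) and without mutant seed coat replicate 1. Of 10 tested cell cycle and replication genes, 0 rose and 6 fell in mutant embryo.

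The 4 growth regulators that rose in the embryo were CYP78A6, GATA19, TCP14 and BLH4, and the first 3 rose further in the seed coat. CYP78A6, a cytochrome P450 that enlarges seeds when active in the maternal integument, was at 12.4, 18.6 and 27 scaled CPM in Col-0 embryo and 153, 107 and 130.4 in mutant embryo. Seed coat values were 0.733, 1.43 and 4.71 for Col-0 against 137, 104 and 178 for the mutant. The mutant libraries lay above the Col-0 ones in both tissues, and the embryo and seed coat of the mutant overlapped. Its log2 changes were 2.75 ± 0.39 in embryo (adjusted p = 0.00011) and 6.05 ± 0.50 in seed coat (adjusted p = 1.26e-06). Its log2 ratio of mutant embryo over seed coat was -0.11 (adjusted p = 0.848).

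GATA19, a GATA factor of the HANABA TARANU subfamily, was at 26.5, 34 and 43 scaled CPM in Col-0 embryo and 116, 103 and 118 in mutant embryo. Its seed coat values were 1, 3.02 and 1.05 for Col-0 against 30.9, 28.3 and 33.8 for the mutant. Each mutant group lay above its Col-0 group, with log2 changes of 1.7 in embryo (adjusted p = 8.48e-05) and 4.17 in seed coat (adjusted p = 5.45e-07). TCP14, a TCP factor that promotes embryo growth during germination, was at 20.2, 17.9 and 20.7 scaled CPM in Col-0 embryo against 33.8, 32.7 and 30.9 in mutant embryo. The seed coat libraries had 1.2, 1.28 and 1.15 for Col-0 against 11.1, 8.38 and 8.81 for the mutant. Its libraries did not overlap in either tissue, and its log2 changes were 0.73 in embryo (adjusted p = 0.000141) and 2.94 in seed coat (adjusted p = 4.17e-08).

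**Figure D4:**
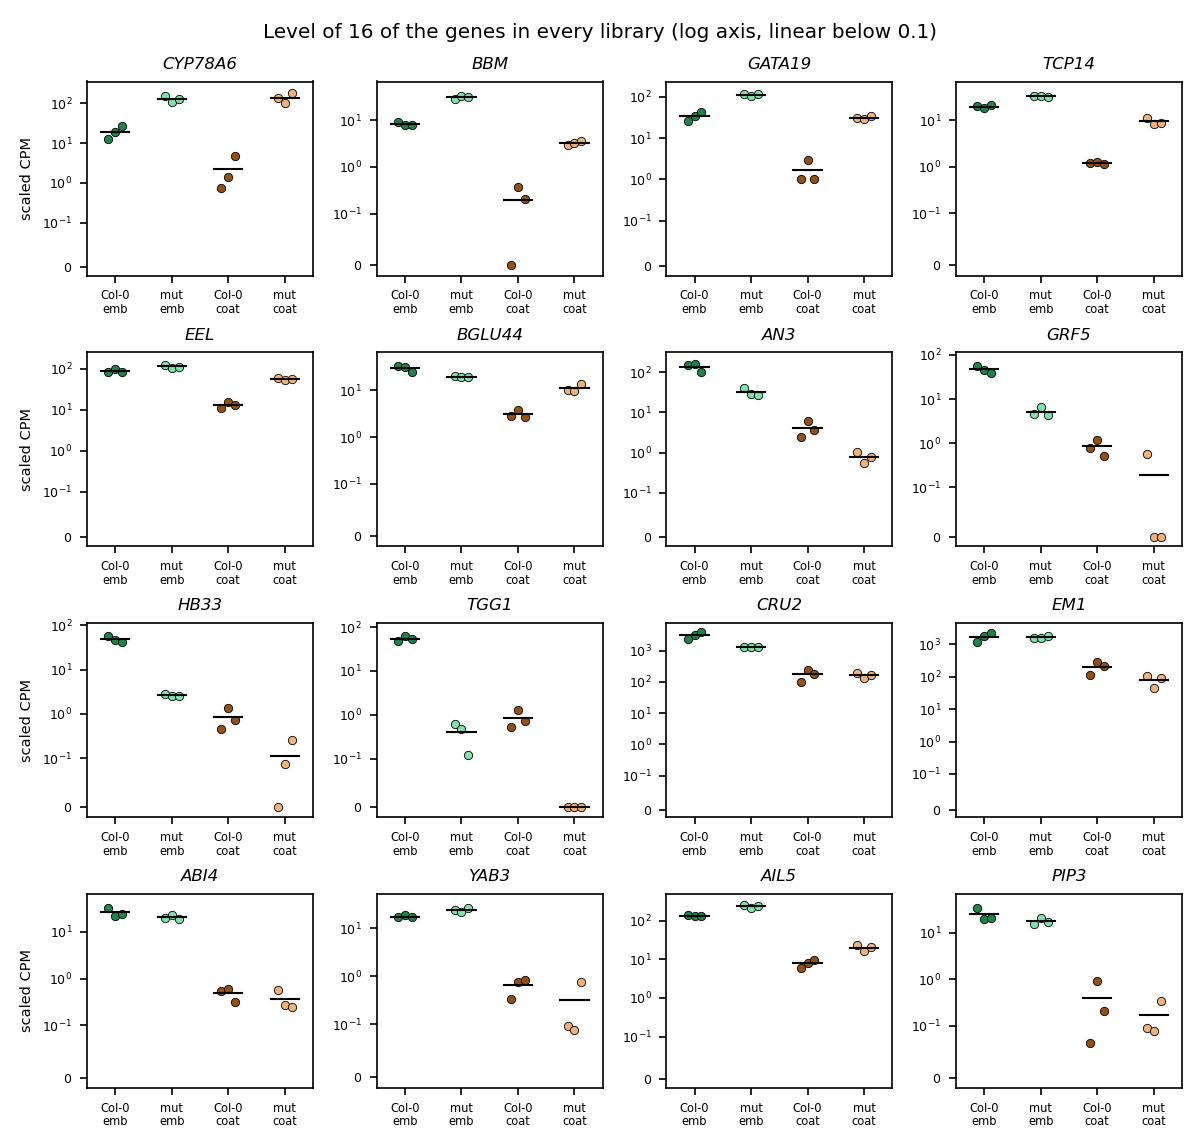
Scaled CPM of 16 of the genes in every library (points) with the group mean (bars) in Col-0 and mutant embryo and seed coat; axes are logarithmic above 0.1 and linear below. CYP78A6 shows 107 to 153 in mutant embryo and 104 to 178 in mutant seed coat, whereas AN3, GRF5, HB33 and TGG1 have lower means in mutant than in Col-0 in both tissues. The seed coat libraries of GRF5 overlapped between genotypes.

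Root, vascular and auxin genes numbered 7, of which 3 rose, 1 fell and 3 were not called, in each tissue. BBM, an AP2 factor that can set off embryo formation in other tissues, was at 9.07, 7.8 and 8.06 scaled CPM in Col-0 embryo and 28.9, 33.9 and 31.4 in mutant embryo. Seed coat values were 0, 0.377 and 0.209 for Col-0 against 2.89, 3.3 and 3.52 for the mutant. No Col-0 library reached the lowest mutant one of its tissue, and the changes were 1.92 ± 0.19 in embryo (adjusted p = 7.48e-06) and 4.07 ± 0.41 in seed coat (adjusted p = 6.34e-06). AIL5, a related AP2 factor of the PLETHORA group, rose from 145, 134 and 133 to 252, 217 and 242 scaled CPM in embryo (adjusted p = 0.000717) and from 6.07, 8.22 and 9.43 to 23.8, 16.5 and 20.6 in seed coat (adjusted p = 2.5e-05). BBM and AIL5 both stayed higher in embryo than in seed coat in the mutant, by 3.27 and 3.54 on the log2 scale.

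IDD11, an INDETERMINATE domain zinc finger factor, rose in embryo (0.72, adjusted p = 0.00307, lost with total gene reads at 0.37) and seed coat (1.25, adjusted p = 0.000458). LHW, the bHLH factor that starts vascular cell divisions, fell from 26.3, 41.3 and 34.3 to 7.45, 9.83 and 6.61 scaled CPM in embryo and from 2.13, 2.79 and 2.62 to 0.289, 0.624 and 0.336 in seed coat. All mutant libraries of LHW lay below the Col-0 ones of the same tissue, with changes of -2.09 (adjusted p = 3.47e-06) and -2.56 (adjusted p = 0.000109). JKD, which bounds the root ground tissue, and the auxin response repressors IAA2 and IAA30 were not called in either tissue, with embryo changes of -0.41, 0.23 and 0.30. Over the 13 tested genes of a root patterning list, 2 rose and 5 fell in mutant embryo, and over 29 tested auxin genes 5 rose and 11 fell.

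Of the 5 genes tied to maturation and reserves, 1 rose and 1 fell in each tissue. CRU2, which encodes a cruciferin storage globulin, was at 2382, 3084 and 3813 scaled CPM in Col-0 embryo and 1321, 1274 and 1319.9 in mutant embryo. All 3 mutant libraries lay below the Col-0 ones, a change of -1.25 ± 0.27 (adjusted p = 0.00224), while the seed coat change was -0.05 (adjusted p = 0.902). CRU2 is the only one of the 90 among 13 storage protein genes, of which 7 rose and 3 fell in mutant embryo and 11 rose and 1 fell in mutant seed coat. EM1, a group 1 late embryogenesis abundant protein that protects dry cells, overlapped in the embryo (1174, 1761 and 2293 in Col-0, 1599, 1528 and 1849.6 in the mutant, adjusted p = 0.887). It fell in the seed coat from 112, 281 and 211 to 104, 44 and 90.4 (log2 -1.34, adjusted p = 0.00781). Of the 36 tested genes of the late embryogenesis abundant list, which holds EM1, 33 rose and 1 fell in mutant embryo and 28 rose and 2 fell in mutant seed coat.

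EEL, a bZIP factor that competes with ABI5 at the EM1 promoter, was at 80.6, 97.9 and 80.4 scaled CPM in Col-0 embryo and 125, 105 and 110.4 in mutant embryo. Seed coat libraries had 11, 15.7 and 12.8 for Col-0 against 58.9, 51.6 and 55.4 for the mutant, with every mutant library above the Col-0 ones. The seed coat change was 2.07 ± 0.14 (adjusted p = 2.26e-07). The embryo change of 0.40 (adjusted p = 0.0211) was lost with total gene reads (0.04, adjusted p = 0.762), without Col-0 embryo replicate 1 or 3 and without mutant embryo replicate 1, where the adjusted p was 0.0691 to 0.14. ABI4, an AP2 factor of abscisic acid and sugar responses, was not called in embryo (-0.36, adjusted p = 0.0862) or seed coat (-0.47, adjusted p = 0.45). With total gene reads its embryo change was called (-0.72, adjusted p = 0.00575), as it was without Col-0 embryo replicate 2 or mutant seed coat replicate 1 (adjusted p = 0.0471 and 0.0465). In the mutant it stood at 19.7, 22.9 and 19 scaled CPM in embryo and 0.578, 0.268 and 0.252 in seed coat, 1 of the sharpest contrasts left there. AT1G62510, a lipid-transfer and seed storage domain protein, was not called in either tissue (-0.23 and -0.15).

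The 10 other transcription factors included 2 that rose and 5 that fell in embryo, and 4 that rose and 5 that fell in seed coat. AT1G49475, a B3 domain factor, fell from 44.4, 41.2 and 42 to 5.94, 5.12 and 4.19 scaled CPM in embryo and from 5.87, 6.94 and 5.97 to 0.482, 0.624 and 0.923 in seed coat, with nearly equal changes of -3.06 and -3.18. ERF2, an ethylene response factor of defence, fell by similar amounts as well (-2.49 and -2.33, adjusted p = 1.28e-06 and 3.56e-05). AT1G68240, a bHLH factor, had 11.7, 13.9 and 12.3 scaled CPM in Col-0 embryo and 0.224, 0.0664 and 0.236 in mutant embryo, a change of -6.07 (adjusted p = 2.06e-08). Its seed coat reads, 20 for Col-0 and 2 for the mutant, gave a ratio of 8.86 with a 95% counting interval of 2.15 to 78.2. The GATA factors GATA17 (-1.9) and AT4G16141 (-2.45) fell in the embryo too. AT-HSFA7B, a heat shock factor, rose in embryo (0.74, adjusted p = 0.0069, lost with total gene reads at 0.39) and in seed coat (1.08, adjusted p = 0.0119, lost without mutant seed coat replicate 1). CIL, a CCT domain factor related to a regulator of chloroplast protein import, was not called in embryo (0.33, adjusted p = 0.114) and rose in seed coat from 0.467, 0.83 and 0.314 to 4.72, 5.26 and 5.37 scaled CPM (3.19, adjusted p = 1.09e-06). MYB30, a MYB factor of defence and brassinosteroid responses, ranged from 20.4 to 56.2 scaled CPM in Col-0 embryo and from 12.9 to 36.9 in mutant embryo, and was not called (-0.85, adjusted p = 0.106).

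Among the 5 chloroplast genes, 0 rose and 3 fell in embryo, and 1 rose and 3 fell in seed coat. CGA1, a cytokinin-responsive GATA factor of chloroplast development, fell from 19, 26.7 and 16 to 1.57, 3.65 and 1.59 scaled CPM in embryo (log2 -3.19, adjusted p = 5.69e-06). In seed coat its reads went from 26 to 2, a ratio of 11.5 with an interval of 2.89 to 100. CAO, a subunit of the chloroplast signal recognition particle, fell in embryo (-2.12, adjusted p = 9.75e-05) and in seed coat (-2.15, adjusted p = 0.0122, lost without Col-0 seed coat replicate 2). RBCS1A, a Rubisco small subunit gene with near-identical relatives among which reads may be split, fell in embryo (-0.68, adjusted p = 0.001) and rose in seed coat (0.58, adjusted p = 0.0118, lost with total gene reads at 0.28). Of 33 tested photosynthesis genes, among which RBCS1A is the only one of the 90, 20 rose and 3 fell in mutant embryo.

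Of 14 metabolic and defence genes, 7 rose and 4 fell in the embryo, and 5 rose and 2 fell in the seed coat. AT4G35160, an O-methyltransferase, rose from 77.6, 74.7 and 88.5 to 272, 245 and 261 scaled CPM in embryo (log2 1.69, adjusted p = 0.000113). CYP76C2, a cytochrome P450, rose from 14.4, 17.7 and 21.6 to 59.2, 55.5 and 61 scaled CPM in embryo. It also rose in seed coat, from a mean of 2.46 ± 0.697 to 16.9 ± 3.13, with no overlap of libraries in either tissue (adjusted p = 7.03e-06 and 7.15e-07). BGLU44, a beta-glucosidase, fell in embryo from 32.2, 31.6 and 24.6 to 20.1, 19 and 18.9 and rose in seed coat from 2.8, 3.77 and 2.62 to 10, 9.72 and 13.5. Its changes of -0.61 (adjusted p = 0.0046) and 1.85 (adjusted p = 5.53e-06) thus had opposite signs. UGT85A1, a glucosyltransferase that acts on cytokinins, had changes of 0.35 in embryo (adjusted p = 0.0137) and -0.58 in seed coat (adjusted p = 0.0116). The embryo call of UGT85A1 was lost with total gene reads (0.00) and without Col-0 embryo replicate 1 or mutant embryo replicate 1, and the seed coat call without mutant seed coat replicate 2. UGT74F2, which glucosylates salicylic acid, was not called in either tissue (0.30 and 0.20). CYP94C1, a P450 that inactivates the jasmonate hormone, was not called in embryo (-0.60, adjusted p = 0.13). It stayed higher in embryo than seed coat in the mutant, by 1.52 on the log2 scale.

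Of 12 genes for membrane transport, 2 rose and 4 fell in embryo, and 3 rose and 2 fell in seed coat. PIP3, a plasma membrane aquaporin, held the sharpest embryo contrast of the mutant among the 53 genes with at least 10 CPM in mutant embryo, with a seed coat level at 0.72% of its embryo level, beside 1.11% in Col-0. Those levels rest on only 1, 1 and 4 seed coat reads in the mutant libraries and 1, 12 and 2 in the Col-0 ones. Its embryo libraries overlapped at 34, 19.6 and 20.7 scaled CPM for Col-0 against 15.6, 20.5 and 17.2 for the mutant, and it was not called (adjusted p = 0.181). SLAH2, a nitrate channel homologous to the guard cell channel SLAC1, fell in embryo from 10.5, 6.73 and 7.16 to 0.952, 1.79 and 1.12 (log2 -2.66, adjusted p = 3.14e-05). AT5G17700, a MATE efflux carrier, rose in embryo from 15.1, 15.8 and 16.2 to 44, 49.2 and 44.2 and in seed coat from 2.8, 2.04 and 3.25 to 26.8, 25 and 25.8. Its fitted log2 ratio of embryo over seed coat was 0.83 in the mutant (1.77-fold higher in embryo, adjusted p = 0.000105). CNGC12, a cyclic nucleotide-gated cation channel of defence responses, was at 19.6, 10 and 7.61 in Col-0 embryo and 11.7, 11 and 13 in mutant embryo, an overlap with a change of -0.07 (adjusted p = 0.87). In the seed coat CNGC12 rose from 2.13, 1.51 and 1.47 to 9.25, 8.65 and 6.46 (2.22, adjusted p = 0.000248). ABCC15, an ABC transporter, was not called in embryo (-0.54) and had 39 seed coat reads for Col-0 and 3 for the mutant, a ratio of 11.5 with an interval of 3.66 to 58.3. ABCC9, which overlaps another gene and had 952 antisense beside 2247 sense reads, fell in embryo (-2.31, adjusted p = 1.84e-05).

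Of 9 cell wall and lipid genes, 2 rose and 6 fell in embryo, and 3 rose and 3 fell in seed coat. AGAL1, an alpha-galactosidase, fell from 21.5, 22.7 and 17.5 to 1.23, 1.4 and 1.3 scaled CPM in embryo (-3.97, adjusted p = 2.04e-07). GPAT1, a glycerol-3-phosphate acyltransferase, fell in embryo from 15.2, 18.2 and 21.7 to 2.97, 3.19 and 2.42 (-2.68, adjusted p = 2.36e-06) with a seed coat change of -0.10 (adjusted p = 0.867). CWLP, a proline-rich linker of wall and plasma membrane, fell in both tissues (-2.64 and -2.87, adjusted p = 3.82e-07 and 0.00073). KCS10, a fatty acid elongase of the epidermis, fell in embryo (-1.5, adjusted p = 0.00105). AT5G15780, an extensin family protein, went from 1246, 1137 and 908 to 419.8, 315 and 369.9 scaled CPM in embryo. AT4G22755, a methylsterol monooxygenase of sterol synthesis, rose from 7.97, 11.6 and 17.3 to 70.9, 71.6 and 70.7 in embryo and from 1, 1.28 and 2.41 to 52.7, 50 and 54.5 in seed coat. The mutant libraries of AT4G22755 were above all Col-0 ones in both tissues, and its log2 ratio of mutant embryo over seed coat was 0.44 (adjusted p = 0.147). AGP7, an arabinogalactan protein, was not called in embryo (0.38) and rose in seed coat from 5.93, 3.47 and 2.93 to 27.3, 22.2 and 32.7 (2.7, adjusted p = 8.38e-06).

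The last 10 genes, kinases and proteins of other or no known function, included 3 that rose and 5 that fell in embryo, and 3 of each in seed coat. AT1G21590, a kinase domain protein, rose in embryo (0.86) and further in seed coat (2.48, adjusted p = 1.49e-06). IQD22, a calmodulin-binding IQ-domain protein, rose in embryo with a log2 change of 0.35 (adjusted p = 0.0102). With total gene reads that change was -0.01, and the call was also lost with no low-count filter and without mutant embryo replicate 1. AT1G72070, a DnaJ-domain protein, is uncertain, as 2158 reads on the opposite strand exceeded its own 1878.

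**Figure D5:**
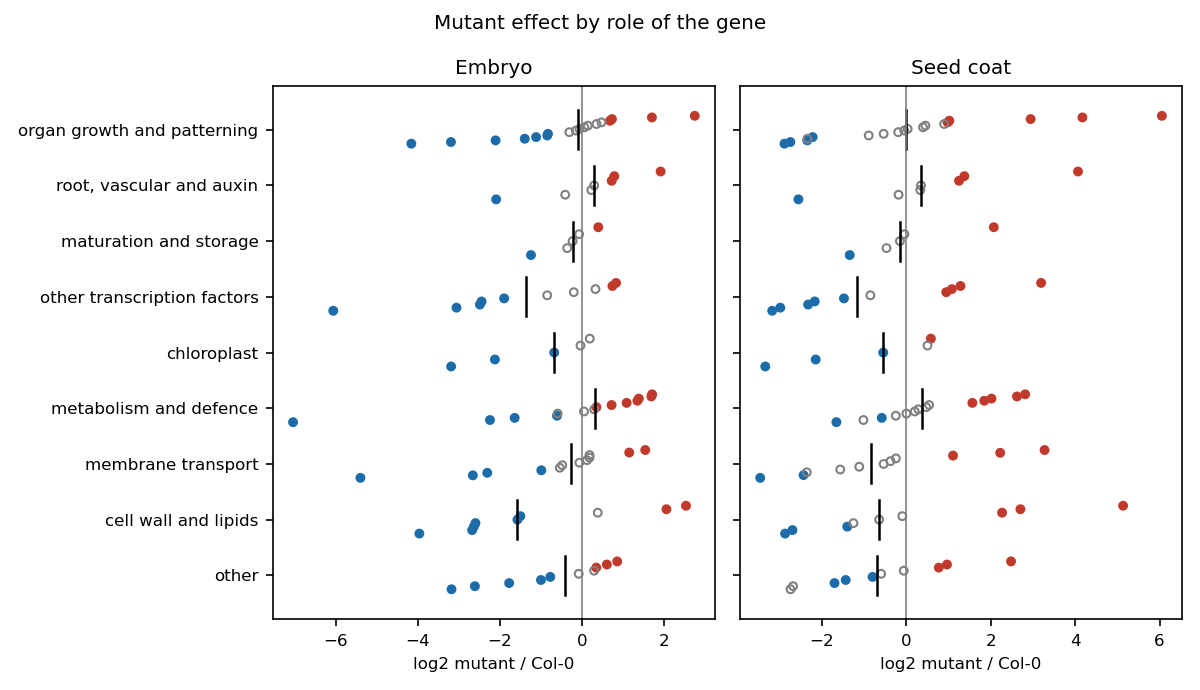
Fitted log2 change of mutant against Col-0 for each gene, by role, in embryo (left) and seed coat (right); filled points passed an adjusted p of 0.05 (red up, blue down), open points did not, and black bars are medians of the fitted values of each group. MSL9 is drawn at its bound in embryo and not drawn in seed coat, and TGG1 at its bound in seed coat; the groups were drawn up after the values were seen, and their embryo medians run from -1.58 to 0.32.

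The 7 genes without a called embryo bias in the mutant were CYP78A6, CNGC12, AT4G22755, AT1G68240, AT1G33590, AT5G42830 and MSL9. For the first 3 the mutant embryo was at 129.8 ± 23, 11.9 ± 1.06 and 71.1 ± 0.431 scaled CPM and the mutant seed coat at 139.6 ± 36.9, 8.12 ± 1.47 and 52.4 ± 2.27, after a rise in the seed coat. For AT1G68240, AT1G33590 and AT5G42830 the mutant embryo was at 0.176 ± 0.0947, 0.982 ± 1.11 and 1.7 ± 0.367, after a fall in the embryo. With the replicate block, CNGC12 (0.56, adjusted p = 0.00957), AT4G22755 (0.44, adjusted p = 0.000327), AT1G33590 (2.21, adjusted p = 0.003) and AT5G42830 (1.36, adjusted p = 0.0206) were called higher in mutant embryo, which left CYP78A6, AT1G68240 and MSL9.

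A change that differed between the tissues was called for 20 of the 90 genes. It was more negative in embryo than in seed coat for 18 (20%, beside 2.02% of tested genes) and more positive for 2 (2.22%, beside 3.72%). The Col-0 tissue ratio that chose the genes is part of this contrast, so the split is a description. Against left-out Col-0 pairs, the lower call was made for 14.6%, 7.45% and 8.33% of the chosen genes, beside 0.372%, 0.221% and 0.155% of all tested genes. TCP14 had the smallest adjusted p, with a difference of -2.21 ± 0.19 (adjusted p = 5.6e-05), followed by BGLU44 (-2.46, adjusted p = 0.000112), AT5G17700 (-1.73, adjusted p = 0.000162), CIL (-2.86, adjusted p = 0.000243) and EEL (-1.68, adjusted p = 0.000287). The opposite sign was found for OBP1 (1.77, adjusted p = 0.00754) and UGT85A1 (0.94, adjusted p = 0.0113). With the replicate number as a block within genotype, 4 genes (4.44%) were more positive and 24 (26.7%) more negative. The shares of all tested genes under that block were not counted, and those given above are from the fit without it.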

How the data were processed

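The authors deposited whole-number read counts per gene, as a combined table of 12 libraries and as per-library files, per the file headers. Per the submitters' processing notes, reads were processed with bcl2fastq 2.19, fastp 0.12.4 and STAR 2.7.9a on TAIR10. Per the labels' protocols, libraries were stranded poly(A) libraries with molecular identifiers. No source used here says whether these removed duplicates, so counting intervals cover counting error only. The combined table equals the reverse-strand column of the per-library files.

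The 4 summary entries were removed, and 32833 gene entries remained. The rule on Col-0 used CPM over total gene reads. Genes were tested with edgeR 4.0.16 in R 4.3.3 (filterByExpr with minimum count 10 and minimum total 15, TMM scaling, quasi-likelihood F test, 4 group means in 1 model of all 12 libraries, common biological coefficient of variation 0.166), with p adjusted by Benjamini-Hochberg over 16238 genes and a threshold of 0.05. The workflow was tested on simulated data in which few genes changed, in mutant embryo only. That cannot test the scaling where many genes change. Replicate libraries differed by more than sampling noise. Groups at 0 reads are compared with a floor of 3 reads per library, and groups of 1 to 3 reads by a ratio of counts with an exact 95% interval. Names, gene positions and upstream sequence come from RefSeq on TAIR10.1.

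The genes, the gene lists and the tests were chosen with earlier results of these data known, and the role groups were drawn up by hand after the values were seen. Named genes were those with most reads, the largest called changes without overlap, the lowest and highest mutant tissue ratios, the smallest p per list and the genes at the thresholds. Further members of each role group, chosen after their values were seen, are named as well.

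Whether replicate numbers pair libraries was checked on deviations from group means. Same-numbered embryo and seed coat libraries had correlations of 0.40, 0.46 and 0.27 for Col-0 and of 0.40, 0.51 and 0.16 for the mutant. Mutant embryo replicate 3 correlated more with mutant seed coat replicate 1 (0.22) than with its own number (0.16). The number was taken to pair the tissues within a genotype, although that replicate did not bear it out. Across genotypes the correlations were negative (-0.47 to -0.036), so it was not taken to pair them. Alternatives were RLE size factors, total gene reads, no low-count filter, DESeq2 1.42.0, unstranded counts, the replicate block, each library left out, other thresholds of the rule and choice on left-out Col-0 pairs.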

Additional observations from a re-analysis of the deposited data

Results flagged for a closer look

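For 20 of the 90 genes the mutant change differed between embryo and seed coat by edgeR's test of the difference itself. The difference, embryo log2 change minus seed coat log2 change, includes the Col-0 tissue ratio that chose the genes, so a negative sign was favoured by the choice; how far was not tested beyond the left-out pairs. It was negative for CYP78A6 (-3.3), CIL (-2.86), AGAL1 (-2.71), AT4G22755 (-2.6), GPAT1 (-2.59), GATA19 (-2.47), BGLU44 (-2.46), AGP7 (-2.32), CNGC12 (-2.29), TCP14 (-2.21) and BBM (-2.15). Smaller negative values were found for AT5G17700 (-1.73), EEL (-1.68), AT4G20320 (-1.64), AT1G21590 (-1.62), AT5G38780 (-1.27), RBCS1A (-1.26) and CYP76C2 (-1.1). OBP1 (1.77) and UGT85A1 (0.935) had positive values.

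The 20 genes reached the difference by different routes. In 10 of them (CYP78A6, AT4G22755, GATA19, TCP14, BBM, AT5G17700, EEL, AT1G21590, AT5G38780 and CYP76C2) both tissues rose and the seed coat rose further, with embryo changes of 0.40 to 2.75. CIL, AGP7 and CNGC12 rose in the seed coat and were not called in the embryo, where CIL and AGP7 passed the threshold without 1 library (adjusted p = 0.0428 without mutant embryo replicate 2, and 0.0258 without Col-0 embryo replicate 1). AGAL1, GPAT1 and AT4G20320 fell in the embryo and were not called in the seed coat, where AGAL1 changed by -1.25 (adjusted p = 0.0756) and passed the threshold with total gene reads (-1.54, adjusted p = 0.0282). BGLU44 and RBCS1A moved in opposite directions in the 2 tissues, as did UGT85A1 with the signs exchanged, and OBP1 fell in both tissues and further in the seed coat.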

How the results depend on the processing

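The number of genes that met the rule was 90, and 54 on TMM-scaled CPM, the same as in the fit; with a library left out it was 77 to 95. Genes at least 8 times higher in mutant embryo numbered 61 in the main analysis and 59 to 64 with a library left out. The share called embryo-higher in the mutant was 92.2%, and 91.1% to 93.3% with a library left out. Of the calls, 81 of 83 for mutant tissue, 50 of 60 for the embryo and 36 of 52 for the seed coat held under every alternative to the fit.

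The medians depended most on scaling. With total gene reads they were -0.529 in embryo and -0.455 in seed coat, while the median of all tested genes moved to -0.346 and -0.296. With a rule fold of 4 they were -0.514 and -0.389, and the embryo median was -0.39 with a level of 5 CPM and -0.076 with 20 CPM. With a library left out they ranged from -0.321 to -0.146 in embryo and from -0.299 to 0.106 in seed coat, where the sign turned without Col-0 seed coat replicate 2. Against left-out Col-0 pairs the seed coat median was -0.0336, -0.363 and 0.0783. In total gene reads the change of IQD22 in embryo turned to -0.00747. The cause of these shifts was not tested.

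With a library left out, 21.1% to 27.8% of the genes rose and 37.8% to 41.1% fell in embryo, and 26.7% to 31.1% rose and 20% to 30% fell in seed coat. Against left-out Col-0 pairs, which leave 1 Col-0 library per tissue assumed to vary like the rest, 17% rose in embryo for pair 2, 20.2% rose in seed coat for pair 2, and 15.9% and 15.6% fell in seed coat for pairs 1 and 3.

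The share more positive in embryo was 2.22%, and became 4.44% with the replicate block, 5.29% with a fold of 4, 0% with a fold of 16, 1.25% with 5 CPM, 3.85% with 20 CPM, 0%, 0% and 1.04% against left-out Col-0 pairs and 2.22% to 3.33% with a library left out. The share more negative was 7.45% and 8.33% against pairs 2 and 3 and 15.6% to 20% with a library left out. The replicate block, taken within genotype, kept all 83 mutant tissue calls and all 20 for the difference, and added 4 (CNGC12, AT4G22755, AT1G33590 and AT5G42830) and 8. Across genotypes the numbers do not pair the samples; with them as a block the 60 embryo and 52 seed coat calls were kept and 2 were added in seed coat.

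Seed coat levels under 1 CPM rest on a few reads per library, which limits what can be called there.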
